A study of Rattus norvegicus with 12 samples.

Results

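The sarcomere, Z-disc and M-band genes of neonatal rat cardiac myocytes are described here: 37 genes listed by symbol, of which 30 had a probe set with that single symbol among the 14506 genes of the array. Where a gene has several probe sets the one with the brightest mean over all 12 arrays stands for it, and each of the 30 had a single probe set. Myl4, Tcap, Nebl, Synpo2l, Myom2, Murc and Myozap were not analysed here under these symbols. Cavin4, the present name of Murc, is given apart and not counted among the 30. The 30 comprise 7 thick filament genes, 6 thin filament genes, 11 genes of titin and the Z-disc, 2 FHL genes, 1 M-band gene (Myom1) and 3 chaperones and partners.

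The sarcomere is the repeating contractile unit of striated muscle, in which myosin thick filaments pull on actin thin filaments under the control of calcium binding to troponin. Thin filaments are anchored and titin is tethered at the Z-disc, which also holds mechanical and signalling adaptors, while the M-band links thick filaments at the centre. Doxorubicin is an anthracycline that damages DNA and is toxic to the heart, and p300 is a histone acetyltransferase that acts as a coactivator of cardiac transcription factors.

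The cultures came from Sprague Dawley rats and held over 90% myocytes by their description, so other cells could be present. Cells received p300 siRNA (p300kd) or non-silencing siRNA (NS), spent 48 h without serum and then met 1 µM doxorubicin for 8 h or 0 h. The groups are p300kd 8 h, p300kd 0 h, NS 8 h and NS 0 h, each with 3 arrays, 1 from each of 3 experiments. All groups share bromodeoxyuridine early in culture and a transfection. Because the untreated cells are the 0 h cells, the drug and the further 8 h of culture cannot be told apart. The RNA is bulk RNA of whole cultures, in which fewer cells of a type and less RNA per cell cannot be told apart.

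Values are log2 of the deposited intensities, and every change is a difference of log2 means, 8 h minus 0 h or p300kd minus NS, with its standard error (SE). A gene was called at an adjusted p under 0.05 from limma, over all 14506 genes. The same test was also run with the experiment as a block, which removes the level that the 4 arrays of an experiment share. Calls are those on the values as deposited unless another scaling of the arrays is named. The siRNA target Ep300 read 10.10, 9.64 and 9.80 in p300kd cells after 8 h, against 10.86, 10.72 and 10.72 in NS cells. At 0 h it read 10.41, 10.02 and 10.05 in p300kd cells, against 11.16, 11.01 and 11.14 in NS cells. Every p300kd array lay below every NS array of its time, and Ep300 was lower in p300kd cells by a log2 change of -0.93 (SE 0.09) averaged over both times (adjusted p = 0.00212), to 0.524 of its NS level. That call was lost under 2 of 22 alternatives, without experiment 2 or without experiment 3 (adjusted p up to 0.348). Ep300 also fell from 0 h to 8 h, by 0.33 (SE 0.09) averaged over both siRNAs (adjusted p = 0.00975). Cardiac myocyte genes outside the sarcomere (9 of 10 measured) read 9.01 to 13.96, with a median of 13.49, and skeletal muscle markers had a median of 7.07. The number of arrays limits the precision.

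Most of the sarcomere genes read near the top of the intensity scale. The highest single value in the table was 14.63, and 20 of the 30 genes averaged 12 or more over the 12 arrays, all 20 of them above the 95th percentile of all genes. Of these, 10 averaged 13 or more. Actc1 (cardiac α-actin, the main actin of the thin filament) averaged 14.15, Myl3 (an essential myosin light chain) 13.97 and Cryab (the small heat shock chaperone αB-crystallin) 13.94. The dimmest was Myot (myotilin, a Z-disc protein that binds α-actinin) at 6.23. A probe set's intensity also depends on its probes, so these positions do not rank the transcripts by amount. The log2 of the summed intensities of all 30 genes ranged from 17.60 to 17.74 in p300kd cells after 8 h and from 17.56 to 17.73 at 0 h. In NS cells the ranges were 17.65 to 17.71 after 8 h and 17.66 to 17.72 at 0 h. The summed level, which the brightest probe sets dominate, overlapped across all 4 groups.

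After 8 h of doxorubicin the thick and thin filament genes other than Mylk3 had changes of at most 0.27 in either siRNA group, while a few Z-disc, adaptor and kinase genes had larger ones. In p300kd cells 5 of the 30 genes were called (16.7%), against 31.4% of all genes: Smpx and Tnnc1 rose, and Fhl2, Nexn and Mypn fell. In NS cells 3 of the 30 were called, against 27.5% of all genes, and these were the same falling genes, Fhl2, Nexn and Mypn. Averaged over both siRNAs, 10 were called (33.3%), against 45.1% of all genes, with Mylk3 joining the falls and Smpx, Tnni1, Capzb, Tnnc1, Myoz2 and Tnnt2 rising. Without the block the shares of the sarcomere genes lay below those of all genes. Their median log2 change was -0.01 in p300kd cells and 0.00 in NS cells, beside 0.04 and 0.04 for all genes. By direction, the background was 13.9% higher and 17.5% lower in p300kd cells, 11.1% and 16.4% in NS cells and 22.5% and 22.5% on average. With the experiment as a block the calls were 9 rises and 4 falls in p300kd cells (43.3%, near the 45.8% of all genes, 22.9% higher and 22.8% lower). They were 3 rises and 5 falls in NS cells (26.7%, against 43.5% of all genes, 21.6% higher and 21.9% lower). On average they were 10 rises and 6 falls (53.3%, near the 56% of all genes, 29.7% higher and 26.3% lower). Without experiment 2, which leaves 2 arrays a group, the averaged count was 3, against 28.9% of all genes. It was 6 without experiment 3 (31% of all genes) or without the NS 0 h array of experiment 1 (40.8%). In p300kd cells the count was 2 without experiment 2 (15.6% of all genes) and 8 without the 8 h array of experiment 1 (33.4%). It was 3 without experiment 3 (16.3%), the 0 h array of experiment 1 (26.4%) or the 8 h array of experiment 2 (25%).

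**Figure D1:**
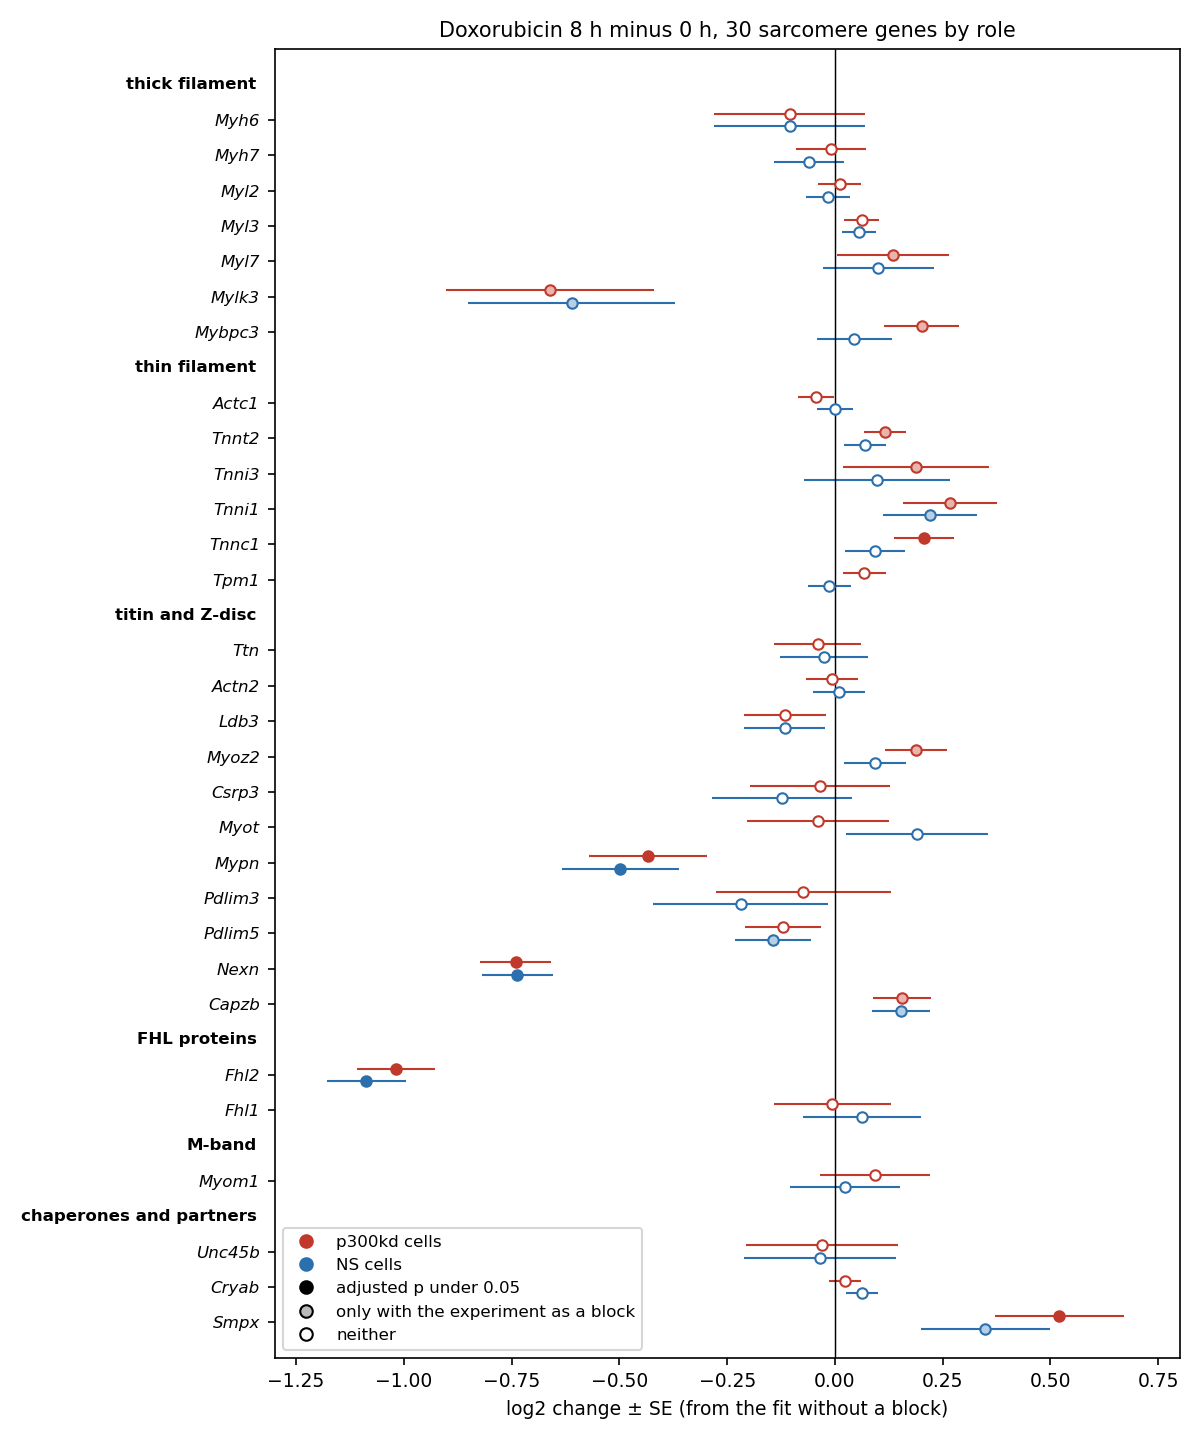
Log2 change at 8 h minus 0 h of doxorubicin (horizontal axis) for the 30 sarcomere genes, grouped by role, with p300kd cells in red above NS cells in blue; bars are the SE from the fit without a block, and filled, pale and open points mark calls without the block, with it only, and neither. Fhl2, Nexn, Mylk3 and Mypn lie far left in both, Smpx lies furthest right, and most others lie near 0.

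The 5 genes whose averaged changes were the largest are shown with the 250 bases before their annotated starts, because the results below turn on them. Of the 30 genes, 24 had an entry in the RefSeq promoters (build GRCr8), with 27 starts in all. Fhl2 has 2 starts, at chr9:52923327-52923576, minus strand and at chr9:52954541-52954790, minus strand. The others lie at chr2:243878153-243878402, minus strand (Nexn), chr20:25435304-25435553, plus strand (Mypn), chr19:37881745-37881994, plus strand (Mylk3) and chrX:41107138-41107387, minus strand (Smpx). Each is written 5′ to 3′ toward the start, and capitals mark a CArG box, the binding motif of serum response factor, or a MEF2 site, both searched on both strands.
Fhl2 start 1: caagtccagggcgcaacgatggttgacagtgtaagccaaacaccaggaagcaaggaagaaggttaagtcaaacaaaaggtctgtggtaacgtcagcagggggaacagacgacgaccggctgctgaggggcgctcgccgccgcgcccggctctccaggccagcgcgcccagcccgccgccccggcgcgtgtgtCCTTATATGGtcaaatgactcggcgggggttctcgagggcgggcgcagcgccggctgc
Fhl2 start 2: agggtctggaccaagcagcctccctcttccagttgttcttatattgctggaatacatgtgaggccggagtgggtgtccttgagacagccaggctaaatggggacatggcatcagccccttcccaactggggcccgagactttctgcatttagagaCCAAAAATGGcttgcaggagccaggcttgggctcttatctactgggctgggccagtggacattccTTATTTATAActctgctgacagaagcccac
Nexn: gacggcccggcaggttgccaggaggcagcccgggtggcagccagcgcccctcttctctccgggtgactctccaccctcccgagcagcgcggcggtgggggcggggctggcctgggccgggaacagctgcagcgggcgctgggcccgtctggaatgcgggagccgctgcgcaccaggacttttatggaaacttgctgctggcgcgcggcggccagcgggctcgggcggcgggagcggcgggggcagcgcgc
Mypn: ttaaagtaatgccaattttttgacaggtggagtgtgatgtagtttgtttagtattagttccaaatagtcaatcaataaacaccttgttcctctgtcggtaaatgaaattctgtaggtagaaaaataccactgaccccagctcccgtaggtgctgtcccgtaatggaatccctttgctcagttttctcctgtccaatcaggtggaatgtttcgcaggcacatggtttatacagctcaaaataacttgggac
Mylk3: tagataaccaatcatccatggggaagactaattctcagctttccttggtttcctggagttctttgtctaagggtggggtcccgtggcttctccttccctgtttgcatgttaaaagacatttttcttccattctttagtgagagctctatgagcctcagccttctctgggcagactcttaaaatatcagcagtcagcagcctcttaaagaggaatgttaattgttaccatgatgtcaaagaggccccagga
Smpx: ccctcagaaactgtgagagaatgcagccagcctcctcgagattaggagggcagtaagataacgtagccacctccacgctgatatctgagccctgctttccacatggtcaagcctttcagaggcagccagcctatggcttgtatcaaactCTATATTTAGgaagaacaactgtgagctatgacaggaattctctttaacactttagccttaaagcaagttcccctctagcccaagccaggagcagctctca
The capitals are a CArG box 58 to 49 bases before Fhl2 start 1, a CArG box 95 to 86 bases and a MEF2 site 30 to 21 bases before Fhl2 start 2, and a MEF2 site 101 to 92 bases before the Smpx start. In the windows of Nexn, Mypn and Mylk3 these letters were not found. Over the sarcomere genes a CArG box was present in 5 of 27 windows (Fhl1, both Fhl2 starts, Ldb3 and Myl3), which is 18.5%, against 1.5% of 33469 windows. A MEF2 site was present in 5 of 27 (Fhl2, Mybpc3, Myoz2, Smpx and Ttn), against 2.96%. CATTCC, the MCAT motif, was present in 29.6% against 12.1%, AGATAA, a motif of GATA factors, in 18.5% against 10.3% and CANNTG, the E-box, in 81.5% against 65.5%. TATAAA was present in 11.1% against 12.9% and GGGCGG in 22.2% against 30.5%. These are letter matches, of which the TATAAA match of Fhl2 start 2 lies within its MEF2 site.

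Among the 7 thick filament genes, Mylk3, the cardiac kinase that phosphorylates the regulatory myosin light chain, moved most. Mylk3 read 9.11, 9.49 and 9.98 in p300kd cells after 8 h, against 10.04, 10.08 and 10.44 in p300kd cells at 0 h. In NS cells it read 9.47, 9.89 and 10.18 after 8 h, against 10.33, 10.17 and 10.88 at 0 h. Every p300kd array at 8 h lay below every one at 0 h, whereas the NS groups overlapped, and all 6 paired differences between 8 h and 0 h of an experiment were falls. Mylk3 fell by 0.64 (SE 0.17) on average, to 0.643 of its 0 h level (adjusted p = 0.00854). It changed by -0.66 (SE 0.24) in p300kd cells and by -0.61 (SE 0.24) in NS cells, and neither passed without the block (adjusted p = 0.0533 and 0.0788). Both passed with it (adjusted p = 7.36e-05 in p300kd cells and 0.00018 in NS cells) and with the experiment as a random effect (0.00326 and 0.00633). Without experiment 2 the averaged adjusted p was 0.0602.

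On the values as deposited the myosin heavy and light chains did not pass without the block. Myh6, the α-myosin heavy chain that prevails in the adult rodent ventricle, read 12.41, 12.92 and 12.87 in p300kd cells after 8 h, against 12.48, 12.93 and 13.10 in p300kd cells at 0 h. The NS cells gave 12.58, 12.65 and 12.96 after 8 h, against 12.63, 12.80 and 13.08 at 0 h. The 4 groups overlapped, and experiment 1 gave the lowest reading in each. Its change was -0.11 (SE 0.18) in p300kd cells and -0.10 (SE 0.18) in NS cells. Myh7, the β-myosin heavy chain, changed by -0.01 in p300kd cells and by -0.06 in NS cells, and Myl2, the ventricular regulatory light chain, by 0.01 and -0.02. Myl3 and Myl7, the atrial regulatory light chain, were called with the block, at averaged changes of 0.06 (adjusted p = 0.0283) and 0.12 (adjusted p = 0.00579). The call of Myl3 was lost under 4 of 5 alternatives to that fit (adjusted p up to 0.193), and Myl7 had an adjusted p of 0.0965 with the experiment as a random effect. With arrays centred on the median of the genes Myl3, Myl2 and Myl7 passed without the block, at averaged changes of 0.16, 0.10 and 0.22 (adjusted p = 0.000688, 0.0377 and 0.0467). Mybpc3, cardiac myosin-binding protein C, read 12.18, 12.45 and 12.36 in p300kd cells after 8 h, against 11.97, 12.18 and 12.25 in p300kd cells at 0 h. After 8 h the NS arrays read 12.09, 12.21 and 12.27, against 12.14, 12.20 and 12.09 at 0 h. The groups overlapped in both pairs. Its changes were 0.20 (SE 0.09) in p300kd cells and 0.05 (SE 0.09) in NS cells, and with the block it passed in p300kd cells (adjusted p = 0.00819) and on average (0.0156), not in NS cells (0.565).

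Of the 6 thin filament genes, 3 troponin genes rose by small amounts on average, and actin and tropomyosin did not pass. Tnni1, the slow skeletal troponin I that the fetal heart uses, read 12.88, 13.12 and 13.28 in p300kd cells after 8 h, against 12.66, 12.80 and 13.03 in p300kd cells at 0 h. Readings in NS cells were 13.02, 13.07 and 13.19 after 8 h, against 12.78, 12.83 and 13.01 at 0 h. In NS cells the groups did not overlap, in p300kd cells they did, and experiment 3 read highest in all 4 groups. Tnni1 rose by 0.24 (SE 0.08) on average (adjusted p = 0.0209), in 6 of 6 paired differences. In p300kd cells its change was 0.27 (SE 0.11) and in NS cells 0.22 (SE 0.11), and neither passed without the block (adjusted p = 0.0821 and 0.156). Both passed with it (adjusted p = 0.000163 and 0.000897) and with the experiment as a random effect (0.00686 and 0.0221).

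Tnnc1, the cardiac and slow skeletal troponin C that binds calcium, read 12.75, 12.90 and 12.85 in p300kd cells after 8 h, against 12.55, 12.65 and 12.69 in p300kd cells at 0 h. NS cells gave 12.69, 12.85 and 12.79 after 8 h, against 12.64, 12.81 and 12.61 at 0 h. The p300kd groups did not overlap and the NS groups did. It rose by 0.21 (SE 0.07) in p300kd cells (adjusted p = 0.0384, a call lost under 10 of 23 alternatives with adjusted p up to 0.237), against a change of 0.09 (SE 0.07) in NS cells (adjusted p = 0.351); the difference between these responses was 0.11 (SE 0.10) and did not pass. Tnnt2, cardiac troponin T, averaged a rise of 0.09 (SE 0.03, adjusted p = 0.0425), and Tnni3, cardiac troponin I, changed by 0.14 (SE 0.12) and passed with the block (adjusted p = 0.0119) but not with the experiment as a random effect (adjusted p = 0.128). Actc1 read 14.14, 14.12 and 14.08 in p300kd cells after 8 h, against 14.15, 14.17 and 14.16 in p300kd cells at 0 h. In NS cells it read 14.17, 14.20 and 14.14 after 8 h, against 14.23, 14.20 and 14.08 at 0 h. In p300kd cells every 8 h array lay below every 0 h array by a small margin, and its change was -0.04 (SE 0.04) there and 0.00 in NS cells. Tpm1, α-tropomyosin, changed by 0.07 (SE 0.05) in p300kd cells and by -0.01 (SE 0.05) in NS cells. Changes of this size depended on the scaling of the arrays: with arrays centred on the median of the genes Actc1 changed by 0.08 and Tpm1 by 0.13 on average, and both passed.

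**Figure D2:**
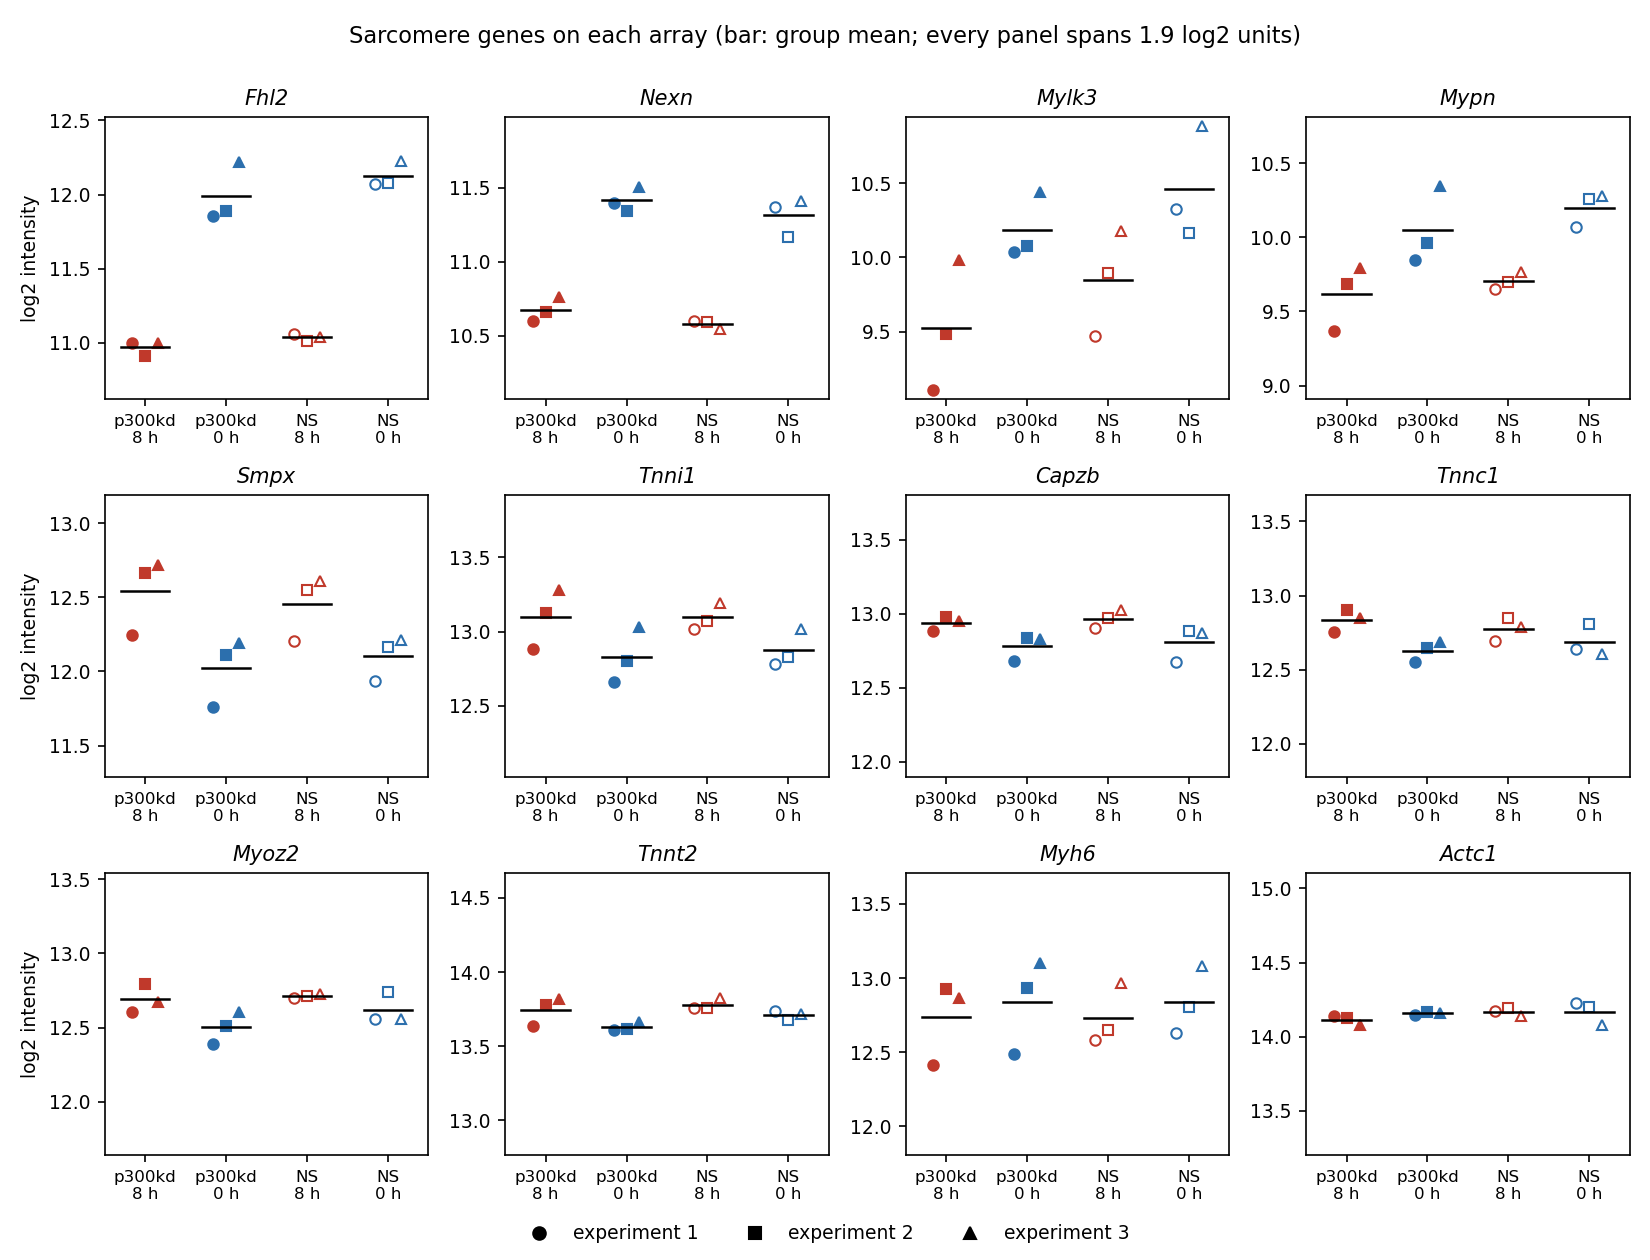
Log2 intensity (vertical axes, each with the same span) of 12 sarcomere genes on every array, with red for 8 h and blue for 0 h, filled for p300kd and open for NS; circles, squares and triangles are experiments 1, 2 and 3, and bars are group means. The 8 h arrays of Fhl2, Nexn and Mypn lie apart from and below the 0 h arrays in both siRNA groups, while the groups of Myh6 overlap and the means of Actc1 differ by at most 0.04 between times.

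Among the 11 genes of titin and the Z-disc, 2 actin- and α-actinin-associated proteins fell in both siRNA groups. Nexn (nexilin, an actin-binding Z-disc protein) read 10.60, 10.66 and 10.77 in p300kd cells after 8 h, against 11.40, 11.35 and 11.50 in p300kd cells at 0 h. The NS cells gave 10.60, 10.59 and 10.55 after 8 h, against 11.37, 11.17 and 11.41 at 0 h. No 8 h array reached any 0 h array. Nexn fell by 0.74 (SE 0.08) in p300kd cells (adjusted p = 3.11e-05) and by 0.74 (SE 0.08) in NS cells (adjusted p = 3.92e-05), to 0.599 and 0.600 of the 0 h level. Mypn (myopalladin, which binds α-actinin) read 9.37, 9.69 and 9.80 in p300kd cells after 8 h, against 9.84, 9.96 and 10.35 in p300kd cells at 0 h. After 8 h the NS arrays read 9.65, 9.70 and 9.76, against 10.07, 10.26 and 10.28 at 0 h. The groups were again apart in both pairs. Mypn fell by 0.43 (SE 0.14) in p300kd cells (adjusted p = 0.0278) and by 0.50 (SE 0.14) in NS cells (adjusted p = 0.0160). The call of Mypn was lost under 7 of 23 alternatives in p300kd cells (adjusted p up to 0.136) and 3 of 23 in NS cells (up to 0.181), and under 0 of 22 on average.

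Capzb, the β-subunit of the protein that caps actin filament ends at the Z-disc, read 12.88, 12.98 and 12.95 in p300kd cells after 8 h, against 12.68, 12.83 and 12.83 in p300kd cells at 0 h. Readings in NS cells were 12.90, 12.97 and 13.02 after 8 h, against 12.68, 12.88 and 12.87 at 0 h. The 8 h arrays lay above the 0 h arrays in both pairs, and Capzb rose by 0.16 (SE 0.05) on average (adjusted p = 0.0177). Myoz2, a Z-disc protein that binds calcineurin, averaged a rise of 0.14 (SE 0.05, adjusted p = 0.0389), in 5 of 6 paired differences. Its call and that of Tnnt2 were each lost under 14 of 22 alternatives, that of Tnnc1 under 9, of Tnni1 under 6 and of Capzb under 3. Ldb3 (cypher, a PDZ and LIM protein) and Pdlim5 were called on average with the block, at -0.12 (adjusted p = 0.0138) and -0.13 (adjusted p = 0.00728), and not without it. These calls were lost under 2 and 3 of 5 alternatives. With arrays centred on the median of the genes the changes were -0.01 and -0.03 (adjusted p = 0.771 and 0.482 with the block), and with quantile normalisation applied again they were -0.21 and -0.20 and passed without the block (adjusted p = 0.0163 and 0.0223). Titin (Ttn) changed by -0.04 in p300kd cells and -0.03 in NS cells, and α-actinin (Actn2) by -0.01 and 0.01. Csrp3, the muscle LIM protein, changed by -0.03 and -0.12, and Pdlim3 by -0.07 (SE 0.20) and -0.22 (SE 0.20). Myot read 6.27, 6.29 and 6.01 in p300kd cells after 8 h, against 6.16, 6.17 and 6.37 in p300kd cells at 0 h. NS cells gave 6.52, 6.56 and 5.97 after 8 h, against 6.29, 6.36 and 5.83 at 0 h. These low readings overlapped throughout, with changes of -0.04 and 0.19 (SE 0.16 each).

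Fhl2, a LIM-domain adaptor that binds titin and also acts as a transcriptional cofactor, had the largest change of the 30. Fhl2 read 11, 10.91 and 11 in p300kd cells after 8 h, against 11.86, 11.89 and 12.22 in p300kd cells at 0 h. In NS cells it read 11.06, 11.01 and 11.04 after 8 h, against 12.07, 12.08 and 12.23 at 0 h. The 3 values after 8 h lay close together in both siRNA groups and below every 0 h value. Fhl2 fell by 1.02 (SE 0.09) in p300kd cells (adjusted p = 6.55e-06) and by 1.09 (SE 0.09) in NS cells (adjusted p = 4.77e-06), to 0.494 and 0.471 of the 0 h level. Its paralogue Fhl1, also a LIM-domain protein of muscle, read 13.24 ± 0.21 in p300kd cells after 8 h and 13.25 ± 0.07 at 0 h (SD, n = 3 each), and changed by -0.01 (SE 0.14). In NS cells Fhl1 changed by 0.06 (SE 0.14). The calls of Fhl2 and Nexn held under every alternative run, 23 in each siRNA group and 22 on average. Some of these could not move the change itself. Both genes have a single probe set, and leaving out an array of the other siRNA alters only the SE and the adjusted p.

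Smpx, a small cytoskeleton-associated protein of striated muscle, rose most of the 30. Smpx read 12.25, 12.67 and 12.71 in p300kd cells after 8 h, against 11.76, 12.11 and 12.19 in p300kd cells at 0 h. The NS cells gave 12.20, 12.55 and 12.61 after 8 h, against 11.93, 12.17 and 12.21 at 0 h. The p300kd groups did not overlap, the NS groups did, and experiment 1 read lowest in all 4 groups. Smpx rose by 0.52 (SE 0.15) in p300kd cells (adjusted p = 0.0175), a call lost under 5 of 23 alternatives (adjusted p up to 0.169). In NS cells its change was 0.35 (SE 0.15), which did not pass without the block (adjusted p = 0.102). It passed with the block (adjusted p = 1.82e-05) and with the experiment as a random effect (0.00664). Averaged over both, the rise was 0.43 (SE 0.11, adjusted p = 0.00458), or 1.35 times the 0 h level, and the call was lost without experiment 2 (adjusted p = 0.0798). The difference between the responses was 0.17 (SE 0.21) and did not pass. Unc45b, the myosin chaperone, changed by -0.03 (SE 0.18) in p300kd cells and by -0.04 (SE 0.18) in NS cells, and Cryab by 0.02 and 0.06 (SE 0.04 each). Myom1, myomesin of the M-band, changed by 0.09 and 0.02 (SE 0.13 each).

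Groups that did not overlap were found for 10 of the 30 genes in p300kd cells (4 higher and 6 lower at 8 h), against 43.2% of all genes, and for 7 in NS cells (4 higher and 3 lower), against 41.3%. How many genes rose and how many fell varied with the scaling of the arrays. As deposited, the averaged calls were 6 rises and 4 falls. They were 3 and 4 with arrays centred on the median of all probe sets, 1 and 6 with quantile normalisation applied again and 13 and 4 with arrays centred on the median of the genes, where the median over all genes became 0.14, against 0.04 as deposited. The share of all genes called was 45.1% as deposited and 43.2%, 41.9% and 63.5% in these scalings. The averaged falls of Fhl2, Nexn, Mylk3 and Mypn kept their sign and their call in each of these scalings. With arrays centred on the median of the genes the averaged changes of Myl2 (0.10), Actc1 (0.08), Myh7 (0.07), Ttn (0.07), Unc45b (0.07) and Csrp3 (0.02) were positive, whereas they were negative as deposited. With quantile normalisation applied again those of Tpm1 (-0.05), Actn2 (-0.04) and Fhl1 (-0.02) were negative, and they were positive as deposited.

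**Figure D3:**
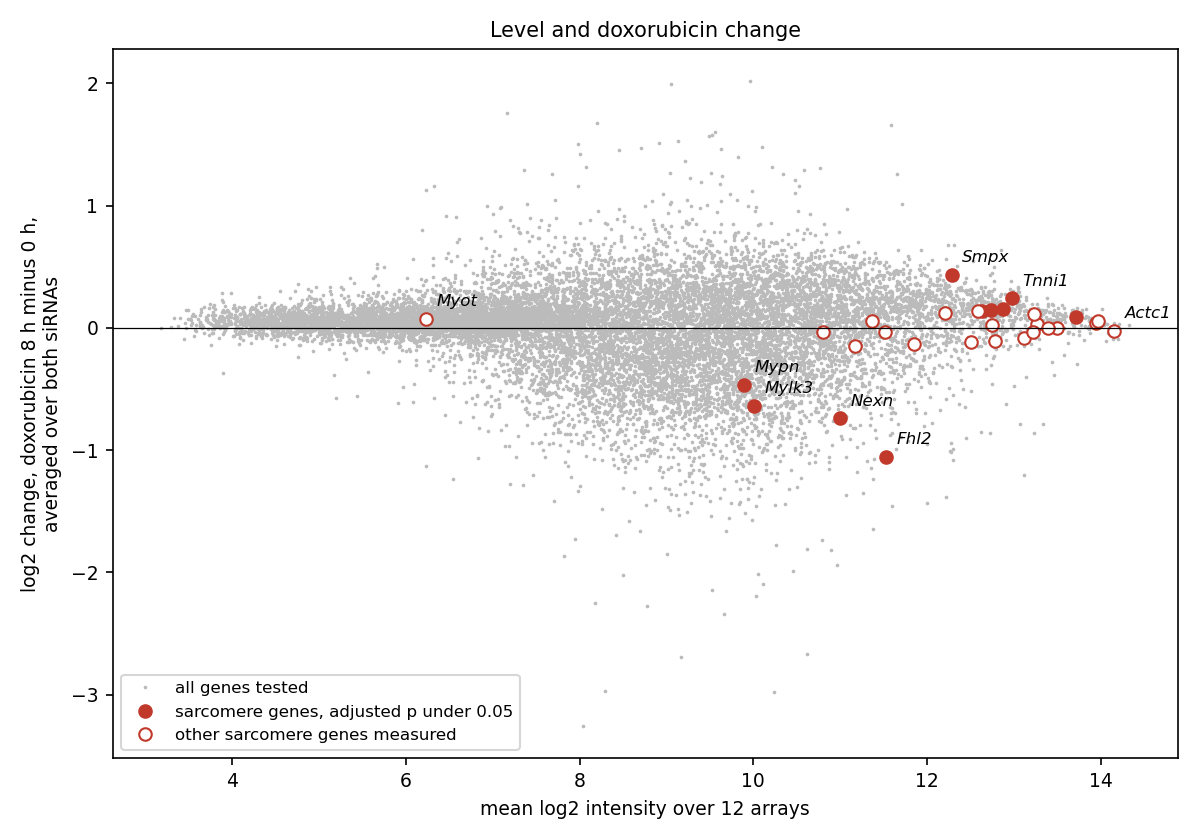
Mean log2 intensity over 12 arrays (horizontal axis) against the log2 change at 8 h minus 0 h averaged over both siRNAs (vertical axis), with all genes in grey and sarcomere genes in red, filled where called. The genes at 13 and over spread little around 0, sarcomere genes among them, and the 4 falling genes lie between 9.89 and 11.53.

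The size of the changes varied with position on the intensity scale, for sarcomere genes and for all genes. Among 222 genes averaging 13 or more, 43.7% were called on average and the median absolute change was 0.09; of the 10 sarcomere genes there 1 was called (Tnnt2), with a median absolute change of 0.04. From 12 to 13 the values were 55.7% of 553 genes and 5 of 10 sarcomere genes, with medians of 0.17 and 0.14. From 11 to 12 they were 59.7% of 1098 genes and 1 of 5 (Fhl2), and from 9 to 11, 61.4% of 4405 genes and 3 of 4 (Nexn, Mylk3 and Mypn). The 1 gene under 9, Myot, was not called, against 33.7% of 8228 genes. In the brightest class 4 genes fell by over 0.5 and 0 rose by over 0.5, with extremes of -1.20 (Lbh) and 0.42 (Ccng1). Whether readings near the top of the scale understate changes of the contractile genes was not tested.

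No sarcomere gene passed for the p300 knockdown without the block. At 8 h 0 of 30 were called, against 0.0483% of all genes, and at 0 h 0 of 30, against 0.0207%. Averaged over both times 0 were called, against 1.25% of all genes. At an unadjusted p under 0.05 limma without the block also passed 0 of the 30 in each of these. Over all genes it passed 1155 at 8 h, 1008 at 0 h and 1845 on average. The SE of that fit includes the differences between experiments: for Mylk3 at 8 h it was 0.24, against 0.10 with the block. How many would pass unadjusted with the block was not counted. With the block 0 of 30 passed at 8 h and 0 at 0 h, against 3.14% and 2.69% of all genes. Mylk3 passed with it on average, against 9.51% of all genes: it was lower in p300kd cells in 6 of 6 paired arrays, with a change of -0.30 (SE 0.17 and adjusted p = 0.527 without the block, adjusted p = 0.0165 with it). That call was lost without experiment 3 (adjusted p = 0.150) and with the experiment as a random effect (adjusted p = 0.140), where 0 of the 30 were called. Tnni3 had an averaged change of -0.15 (SE 0.12) and an adjusted p of 0.0509 with the block. Over the 30 genes the changes ranged from -0.32 to 0.14 at 8 h and from -0.27 to 0.10 at 0 h, with medians of -0.02 and -0.05, beside 0.01 and 0.00 for all genes. At 8 h 2 genes did not overlap between the siRNA groups (Nexn higher, Fhl2 lower), against 11.1% of all genes, and at 0 h 1 did not (Tnnt2 lower), against 13%. For Nexn the groups all but touched, with a lowest p300kd reading of 10.5989 and a highest NS reading of 10.5986. A probe set annotated to Cavin4, the present name of Murc, was not counted among the members. Its averaged change was -0.31 (SE 0.08, adjusted p = 0.102 without the block and 0.0219 with it). At 0 h the change of Cavin4 was -0.37 (SE 0.12), and the siRNA groups did not overlap. Limma without the block gave it an unadjusted p of 0.00661 and an adjusted p of 0.396. At 8 h the change was -0.24 (SE 0.12, adjusted p = 0.640 without the block), and the groups overlapped.

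**Figure D4:**
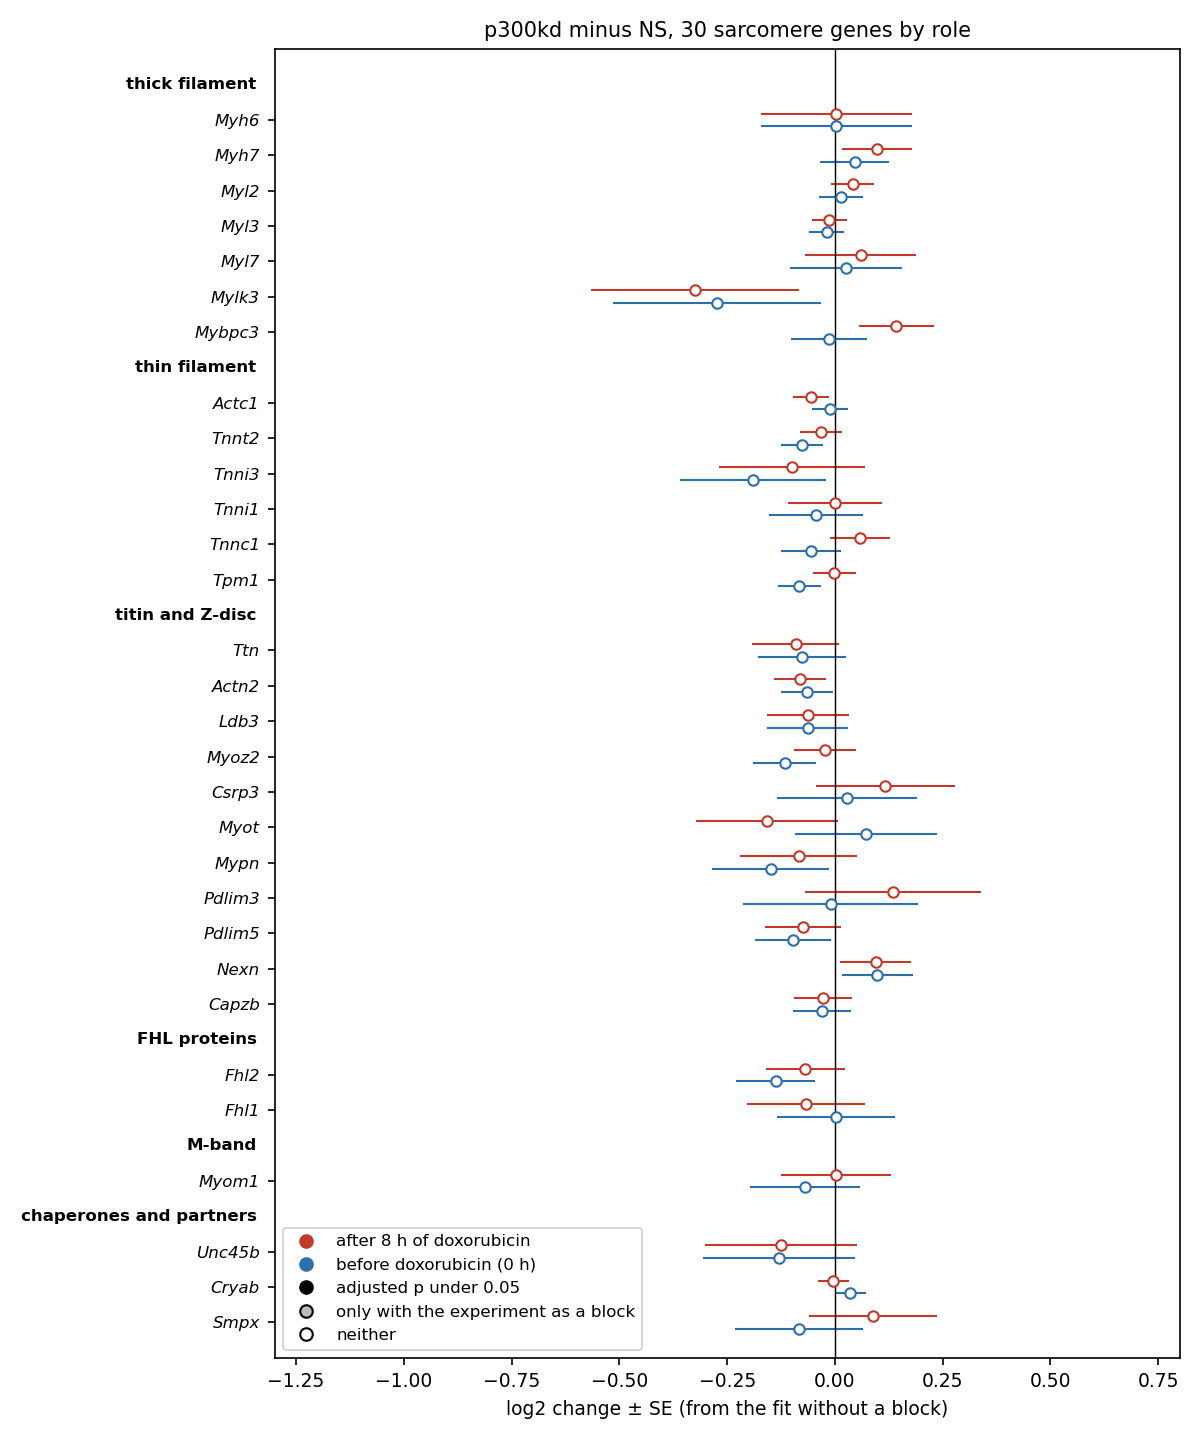
Log2 change of p300kd minus NS (horizontal axis) for the 30 sarcomere genes by role, after 8 h of doxorubicin in red above 0 h in blue; bars are the SE. All points are open, so none passed at either time, and Mylk3 lies furthest left at -0.32 and -0.27.

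The response to doxorubicin was also compared between the siRNA groups. For this difference 0 of 30 sarcomere genes and 0% of all genes were called, without the block and with it. At an unadjusted p under 0.05 limma without the block passed 0 of the 30, against 228 genes. With the block the unadjusted p were not counted. The differences ranged from -0.23 (Myot) to 0.17 (Smpx). A p that misses the threshold does not show that the responses were alike: without the block the SE was 0.13 for Fhl2 (difference 0.07) and 0.12 for Nexn (difference 0.00). Marker lists of other cells differed in their averaged change with the siRNA, where 1.25% of all genes were called without the block and 9.51% with it. Smooth muscle and pericyte markers had a median of -0.01, with 1 of 10 lower without the block and 1 higher and 3 lower with it. Skeletal muscle and erythroid markers had medians of 0.01 and -0.03, with 0 called in either fit. The 10 macrophage and leukocyte markers had a median change of -0.40. Without the block 4 (40%) were called lower in p300kd cells on average (Ptprc, Csf1r, Mrc1 and Tyrobp), and with it 8 were (80%). The lowest mean level of the 10 markers was 6.78, below the median log2 intensity of every array (7.73 to 7.80). The log2 of their summed intensities was 13.01 to 13.34 in p300kd cells against 13.35 to 13.70 in NS cells at 8 h, and 12.78 to 13.37 against 13.37 to 13.65 at 0 h. Fibroblast markers had a median change of -0.15, with 0 of 10 called without the block and 5 lower with it (50%). Their summed levels were 15.14 to 15.39 in p300kd cells against 15.32 to 15.47 in NS cells at 8 h, and 15.14 to 15.42 against 15.36 to 15.51 at 0 h. All 9 endothelial markers had lower averages in p300kd cells (median change -0.11). Without the block 0 of them were called and with it 1 was lower (11.1%, near the share of all genes). Their summed levels were 11.19 to 11.35 in p300kd cells against 11.22 to 11.43 in NS cells at 8 h, and 11.21 to 11.45 against 11.32 to 11.50 at 0 h. The part of these cells in the values of Mylk3 was not tested.

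Switches between paired isoforms were examined as the difference of log2 values of Myh6 and Myh7, Tnni3 and Tnni1, and Myl2 and Myl7. The 12 shifts between groups lay between -0.15 and -0.01. The exact two-sided permutation test of 3 arrays against 3 gave p from 0.3 to 0.9 (adjusted p = 0.9 for each), but its smallest possible p is 0.1, so a shift of any size would have missed the threshold and the test says nothing about whether a switch occurred.

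Other genes of the sarcomere were read from a list of 64, of which 47 were measured. Without the block 6 rose and 6 fell with doxorubicin in p300kd cells (25.5%, beside the 31.4% of all genes). In NS cells 2 rose and 6 fell (17%, beside 27.5%). On average 11 rose and 8 fell (40.4%, beside the 45.1% of all genes), with a median change of 0.03. With the block 14 rose and 10 fell in p300kd cells (51.1%, beside 45.8%) and 11 rose and 9 fell in NS cells (42.6%, beside 43.5%). The averaged calls with it were 17 rises and 13 falls (63.8%, beside 56% of all genes). The strongest averaged falls were those of Speg, a striated muscle kinase, at -1.43 (SE 0.07, adjusted p = 2.49e-08), Trim63, a muscle ubiquitin ligase, at -1.16 (SE 0.16, adjusted p = 7.51e-05), Ankrd1, a titin-binding ankyrin-repeat protein, at -0.78 and Bag3, a co-chaperone of the Z-disc, at -0.74. The strongest averaged rises were those of S100a1, a calcium-binding protein of the sarcomere and reticulum, at 0.41 (SE 0.13, adjusted p = 0.0203), Mybphl at 0.36, Tnnc2, fast skeletal troponin C, at 0.36 and Capza2, an α-subunit of the capping protein, at 0.33. With p300 siRNA, Bag3 was called lower on average, at -0.26 (SE 0.05, adjusted p = 0.0349). With the block 3 were higher and 6 lower (19.1%, beside 9.51% of all genes), among them Myh3, embryonic myosin heavy chain, at 0.83 (adjusted p = 0.00171), Myh2, a fast skeletal myosin heavy chain, at 0.32 (0.00876), Trim54 at -0.32 (0.00215) and Hspb8, a small heat shock partner of Bag3, at -0.31 (0.00299).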

How the data were processed

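Total RNA of 12 cultures was measured on Affymetrix whole-transcript arrays. The deposited values are linear intensities, 1 per probe set; per the submitters' processing notes the authors used Affymetrix Expression Console 1.1 with RMA, and how the values became linear is not given in the sources used here. Log2 was taken. Of 29214 probe sets, 15310 had 1 gene symbol, 323 several and 13581 none; only the first kind was used, with the brightest probe set of each gene. Median log2 intensities lay between 7.73 and 7.80.

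The model had 4 group means (limma 3.58.1, R 4.3.3, lmFit and eBayes with trend, two-sided, Benjamini-Hochberg over 14506 genes); the script was tested on simulated data. Residual degrees of freedom were 8, and 6 with the block. The members and lists were chosen with earlier results of these data known. Array values are printed for called members with the largest change in their role group and for the extreme member of each comparison (Mylk3, Tnni1, Nexn, Fhl2, Smpx, Mybpc3 and Myot); Mypn, Tnnc1, Capzb, Myh6 and Actc1 were added after their values were seen. Of the other sarcomere genes, up to 4 rises and 4 falls were named.

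Whether replicate numbers pair the samples was checked on deviations from group means. Arrays of 1 number and different groups correlated at a median of 0.50 (18 pairs, 0.17 to 0.69), others at -0.27 (36 pairs), and each of the 12 arrays had its best match among arrays with its number. The design text describes 3 experiments, so the numbers were taken to pair them.

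Alternatives were the experiment as a fixed or random block, only the groups compared, dim genes left out, other scalings, the mean of all probe sets and leaving out each array or experiment. Counts of lost calls include alternatives that could not move a change. The mean of all probe sets could not, since each member has a single probe set. Neither could an array left out of a group not compared. Centring on the median of the genes was chosen after seeing the data. Figures used matplotlib 3.10.9 and the permutation tests scipy 1.17.1.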

Additional observations from a re-analysis of the deposited data

Results flagged for a closer look

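Smpx differed in the direction of its p300 siRNA value between the times. After 8 h of doxorubicin it was higher in p300kd cells than in NS cells in 3 of 3 experiments (change 0.0885, from 0.04 to 0.12), and at 0 h it was lower in 3 of 3 (change -0.0834, from -0.17 to -0.02). The difference between the times, 0.17, was tested as the interaction and did not pass, either without the block (SE 0.21) or with the experiment as a block (SE 0.06, adjusted p = 0.989). Neither change passed at its own time, without the block (adjusted p = 0.938 at 8 h and 0.997 at 0 h) or with it (0.330 and 0.414).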

How the results depend on the processing

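No called sarcomere gene changed sign under any alternative run. With the replicate block the counts were 13 in p300kd cells, 8 in NS cells, 16 averaged over both siRNAs and 1 for the averaged knockdown. The shares of all genes called were 45.8%, 43.5%, 56% and 9.51%. As a random effect the experiment gave 11 in p300kd and 7 in NS cells, and 0 for the averaged knockdown. The shares of all genes there were 43.2%, 39.6% and 5.63%. Quantile normalisation applied again gave 3 in p300kd cells (30.2% of all genes). Centring on the median of the genes gave 12 in p300kd cells (43.7%), 11 in NS cells (38.8%) and 17 on average (63.5%). With the replicate block it gave 17 in NS cells (54.4%). For the averaged knockdown the block gave 2 with arrays centred on all probe sets (9.16% of all genes). The block changed no other count of sarcomere genes by over 1.5 times.

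Leaving out arrays or an experiment gave 2 to 8 calls in p300kd cells, 2 to 4 in NS cells and 3 to 11 on average. The shares of all genes were 15.6% to 33.4%, 12.3% to 29.4% and 28.9% to 46.2%. In p300kd cells the lowest was without experiment 2, and the highest without the 8 h array of experiment 1; it was 3 without experiment 3, without the 0 h array of experiment 1 or without the 8 h array of experiment 2. With the block the ranges were 10 to 12, 7 to 9 and 11 to 15, against 35.3% to 40%, 31.9% to 37.6% and 46.4% to 51.4% of all genes. For the averaged knockdown they were 0 to 2, with 2 without experiment 2 (4.22% of all genes) and 0 without experiment 3 (1.98%). The knockdown at either time and the interaction gave 0 throughout.

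Over all genes the calls were 4560 in p300kd cells, 3992 in NS cells and 6541 on average, against 6639, 6317 and 8120 with the block. For the knockdown they were 7 at 8 h, 3 at 0 h and 181 on average, against 455, 390 and 1380 with it, and 92, 125 and 816 with the random effect. With only the groups compared, limma called 0 genes for the knockdown at either time. Centring on the genes split the averaged calls into 6684 rises and 2526 falls, against 3271 and 3270 as deposited. The number of arrays limits precision: the median SE was 0.10 in NS cells.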

Other observations

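Among cardiac myocyte genes outside the sarcomere, 2 of 9 rose with doxorubicin averaged over both siRNAs, beside 22.5% higher and 22.5% lower among all genes: Cox6a2, a muscle subunit of cytochrome c oxidase, at 0.16 (SE 0.03, adjusted p = 0.0018) and Nppa, atrial natriuretic peptide, at 0.08 (SE 0.03, adjusted p = 0.0388). The median of the 9 was 0.10. Of 8 skeletal muscle markers, which had a median level of 7.07, 3 rose and 0 fell, with a median of 0.16. Endothelial markers had 1 rise and 3 falls of 9, smooth muscle and pericyte markers 2 rises and 3 falls of 10, fibroblast markers 2 rises and 1 fall of 10, macrophage and leukocyte markers 1 rise and 2 falls of 10 and erythroid markers 2 rises of 3.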
